A study of Mus musculus with 18 samples.

Results

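The axon guidance ligands and receptors are described here in sorted cells of the mouse mammary gland. The set held the semaphorins, plexins, neuropilins, ephrins, Eph receptors, Slits, Robos, netrins and netrin receptors, chosen by gene symbol. Symbols matched 71 of the 52636 genes in the tables, and 64 of these had at least 10 counts in at least 3 of the 18 libraries and are the members. The 7 left out were Epha8, Epha10, Robo3, Dcc and 3 antisense transcripts of Plxna4. Of all genes, 18411 passed the same rule, and no measured difference between groups entered it. By role the set held 33 ligands and 31 receptors. Ntn3 was not analysed here.

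Each of 6 groups had 3 libraries, which the submitters call biological replicates. Mice carried wild-type Esr1 (WT), the gene of estrogen receptor alpha, or its D542G or Y541S form, which change 1 amino acid of the receptor. Whether the mutations were carried in every tissue and on 1 or both alleles is not given in the sources used here. From each genotype, cells of a mature luminal gate (ML) and of a second gate (N) were sorted by flow cytometry, and the labels name mature luminal cells as the source of both. All mice were 6 months old, carried hormone pellets (estradiol, E2, with progesterone, P4) and took 30 mg/kg giredestrant, an antagonist of the receptor, by mouth once a day for 4 days. Every group, WT included, had therefore received the hormones and the antagonist. The title of the study asks about rare cells that appear when the receptor is blocked, and N was compared with ML, and the genotypes with each other, with that question.

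These families were first studied as signals that steer growing axons. Netrins act through Neo1, Dcc and Unc5 receptors, Slits through Robo receptors, semaphorins through plexins with neuropilins as partners, and membrane-bound ephrins through Eph receptors on neighbouring cells. In the mammary gland, netrin 1 with neogenin and Slit with Robo are known to hold the inner luminal and outer basal layers of the duct together, and Eph receptors and ephrins to act in the sorting of cells at such boundaries.

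Library totals ran from 34797778 to 49507144 counts, and values are CPM, counts scaled to the library total with edgeR's TMM factors, where 3 counts correspond to 0.0595 to 0.0831 CPM. Marker lists described the gates. The sum of 10 basal markers was 5471 to 36680 CPM in N and 191 to 6376 CPM in ML, and that of 10 luminal markers 1447 to 16950 CPM in N and 15590 to 30480 CPM in ML, so luminal markers were present in all N libraries but were low in most. WT N 3, with 5471 CPM of basal and 16950 CPM of luminal markers, lay within the ML range of both sums. Of the ML libraries, only WT ML 1 (6376 CPM) had a higher basal sum. WT ML 2 had 4768 CPM, Y541S ML 3 had 1854 CPM and the other ML libraries had at most 549.3 CPM. In the N gate, WT N 1, WT N 2 and Y541S N 3, had summed epidermal markers of 4032, 10120 and 11770 CPM, and no other N library exceeded 749.9 CPM. In the ML gate, hair follicle keratins summed to 4051 CPM for Y541S ML 3, 6221 CPM for WT ML 1 and 1285 CPM for WT ML 2, and to at most 150.9 CPM for the rest. These ML libraries have the same genotypes and numbers as the N libraries with high epidermal markers. They also had the highest epidermal sums in ML, at 1785, 446 and 206.2 CPM, and no other ML library exceeded 105.7 CPM. Fewer cells of a type and less RNA per cell cannot be told apart in such bulk samples.

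Axon guidance genes were on the whole higher in N than in ML, with netrin 1, Sema4d and Ephb3 among the exceptions. With the 3 genotypes weighted equally, 29 of the 64 members were called in N against ML, that is, had an adjusted p under 0.05 in edgeR's quasi-likelihood test with Benjamini-Hochberg adjustment over all 18298 genes tested. This was 45.3% of the members, beside 27.4% of all genes tested. Of the 29, 23 rose (13.8% of all genes rose) and 6 fell (13.6% of all genes fell). The median log2 fold change was 0.63 over the members and -0.03 over all genes, and the median size of change, without sign, was 0.84 and 0.48. Among ligands 13 rose and 3 fell, with a median of 0.67, and among receptors 10 rose and 3 fell, with a median of 0.52. Each of the 29 had the same sign in all 3 genotypes, which their choice by the mean of these same genotypes favours. Of the 64 members, 58 met the count rule in the libraries of either gate alone, and 25 of these were called (21 higher and 4 lower). The other 6 met it through 1 gate, so a difference between the gates was built into their choice: Sema4f, Plxnb3 and Epha5 through ML, and Efnb3, Unc5c and Sema3a through N.

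The count of called members lay between 24 and 31 when each library was left out in turn, and 22 of the 29 kept their call in all 18 of these fits. Without WT N 1, WT N 2 and Y541S N 3 it was 18 (13 higher and 5 lower), 17 of them among the 29, where 14.6% of all genes were called. That fit left WT N 3 as the only WT N library. Its luminal marker sum lay within the ML range, and of the ML libraries only WT ML 1 had a higher basal sum. A call lost in that fit can therefore not be traced to the epidermal markers, whose part in these calls was not tested further.

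**Figure D1:**
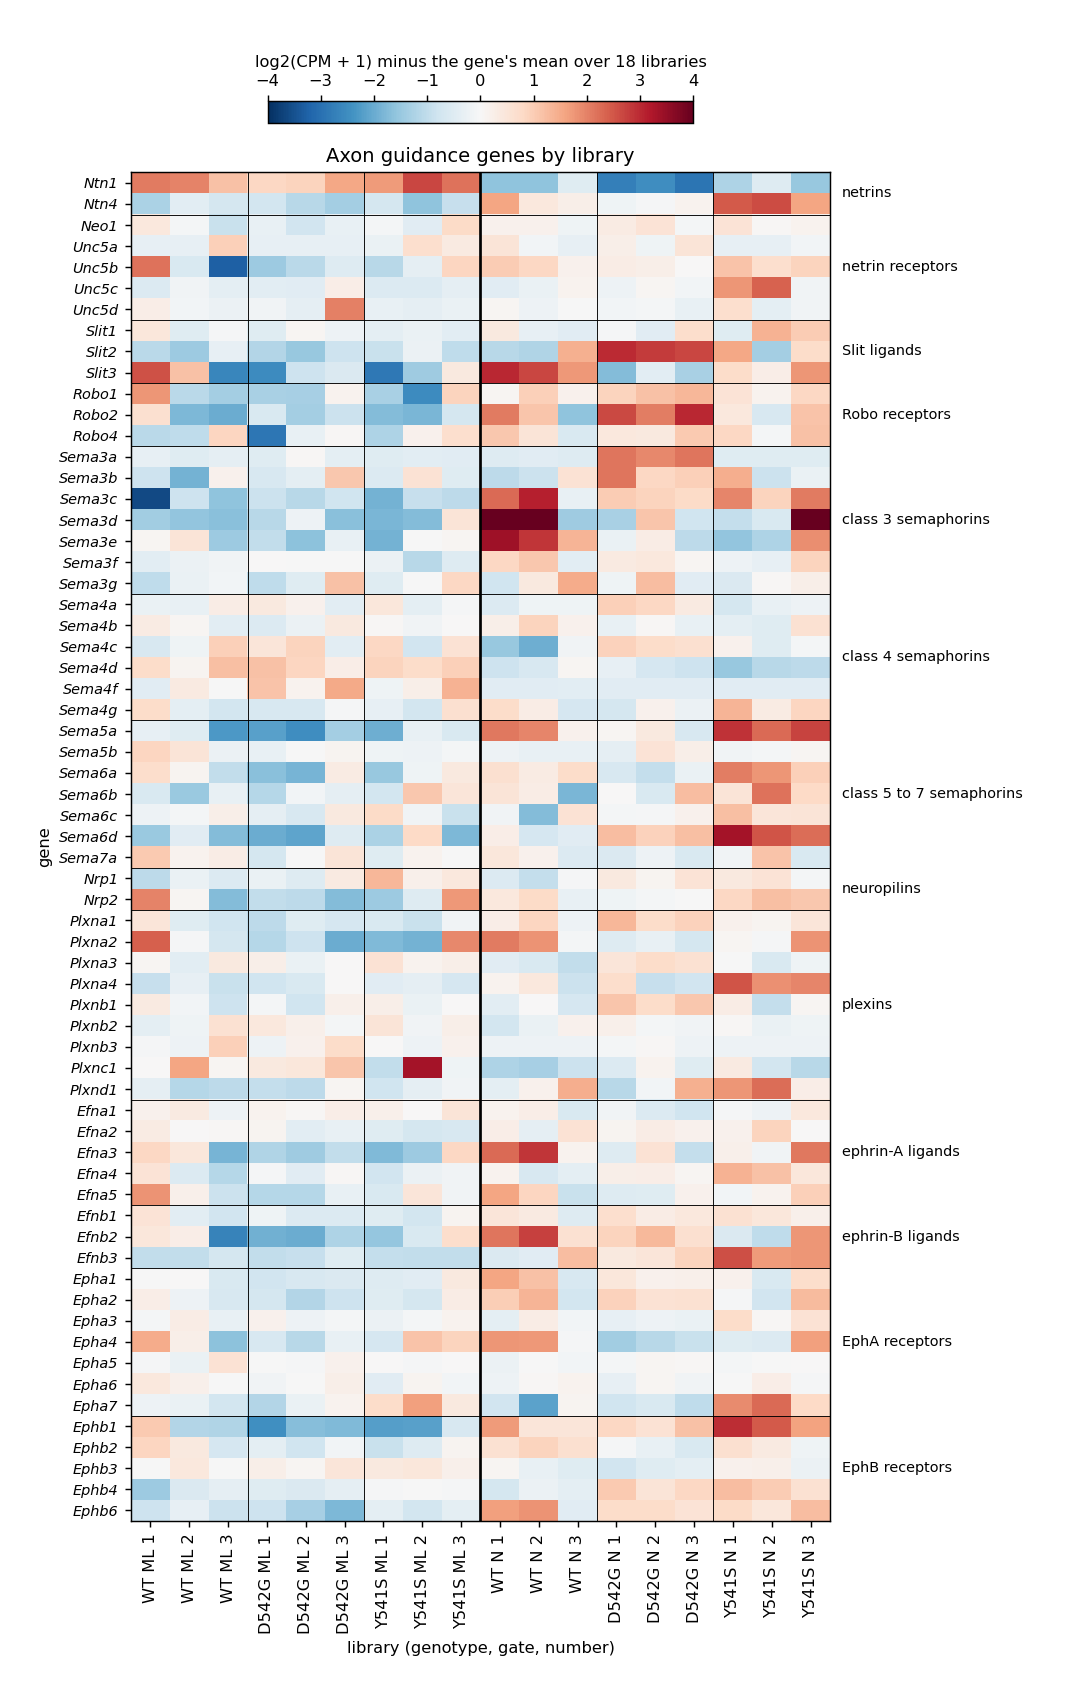
Levels of the 64 members in each of the 18 libraries, as log2(CPM + 1) minus the mean of the gene over all libraries. Rows are genes grouped by family and columns are libraries, ML left of the thick line and N right of it, and the colour scale stops at 4 in either direction, which Sema3d exceeds in WT N 1, WT N 2 and Y541S N 3. Ntn1 is red in all ML and blue in nearly all N libraries, and Ntn4 and Sema3c show the opposite order.

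**Figure D2:**
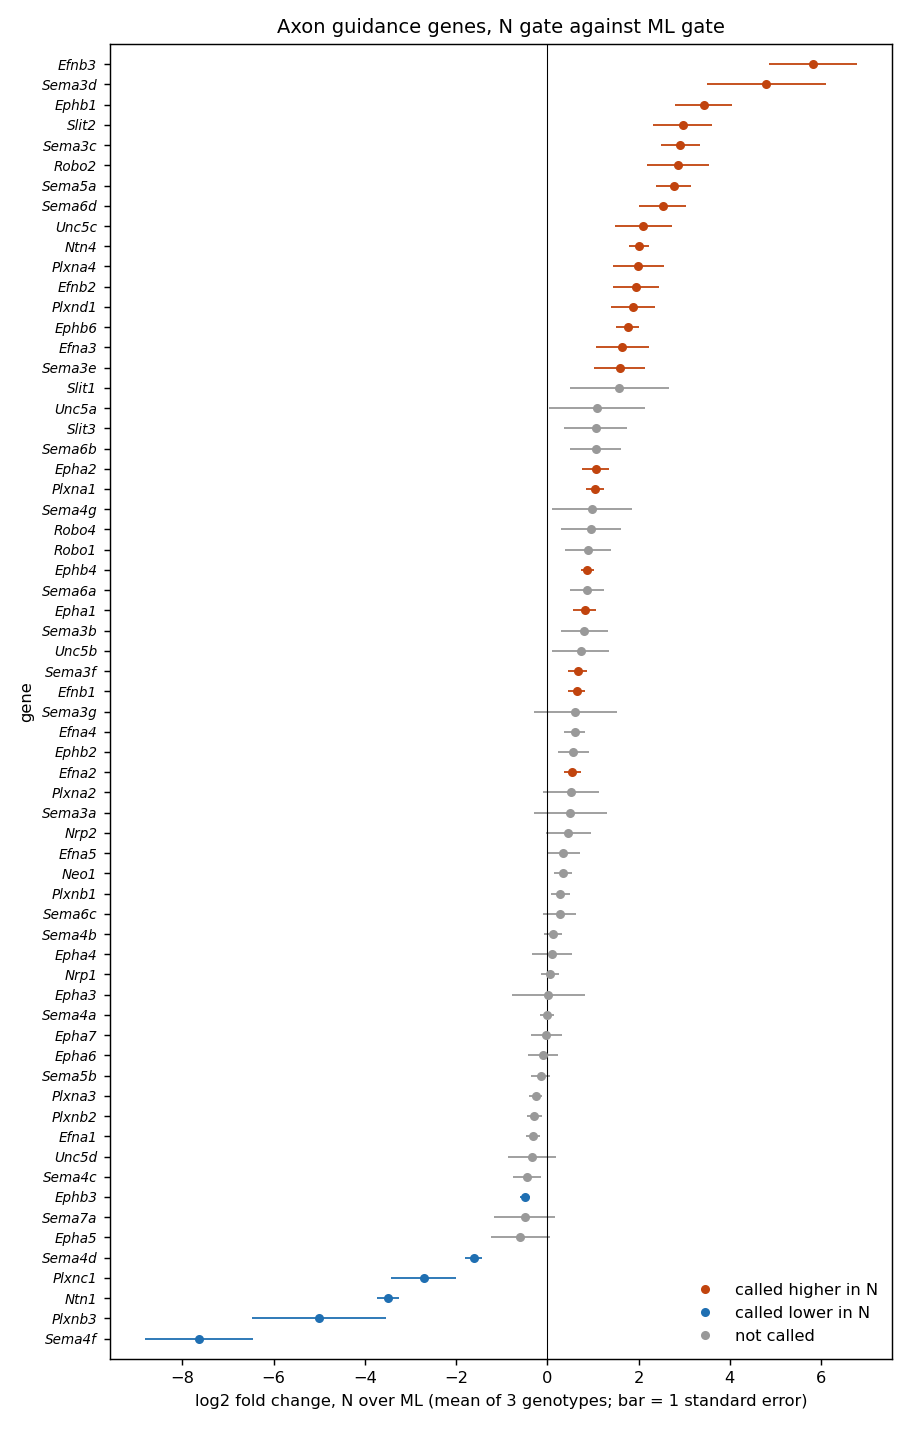
Log2 fold change in N over ML for each member, averaged over the 3 genotypes, with 1 standard error as the bar, from edgeR. The 23 members called higher are orange, the 6 called lower are blue and the other members are grey, and the estimates of Sema4f and Plxnb3 rest on groups with no or few counts and depend on the model's prior.

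The netrins went in opposite directions. Ntn1, a secreted laminin-related ligand, lies at chr11:68209364-68400823 on the minus strand of GRCm38. It stood at 139, 132 and 74.5 CPM in WT ML, 57.5, 61.0 and 96.4 in D542G ML and 108, 212 and 150 in Y541S ML. The N values were 9.91, 9.98 and 22.6 CPM in WT, 4.04, 4.97 and 3.36 in D542G and 13.2, 22.1 and 10.6 in Y541S. All 9 N libraries were below all 9 ML libraries. Ntn1 fell by 3.50 ± 0.24 (SE) on the log2 scale, with an adjusted p of 5.9e-07 in edgeR's quasi-likelihood test. It was the only member with a lower value in N that was called in each genotype by itself, and those 3 calls held with each library left out.

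Ntn4, a netrin of basement membranes that binds laminin, lies at chr10:93640681-93747207 on the plus strand. In ML it ranged from 41.8 to 95.8 CPM with a median of 67.2. The N libraries had 388, 174 and 151 CPM in WT, 115, 126 and 142 in D542G, and 708, 796 and 386 in Y541S. All N libraries lay above all ML libraries, and the 3 Y541S libraries were among the 4 highest. Ntn4 rose by 2.0 ± 0.22 on the log2 scale (adjusted p = 2.2e-05). Like Ntn4, Sema3c had all 9 N libraries above all 9 ML libraries, and Sema4d shared with Ntn1 that all N libraries lay below. These 2 and 2 of 64 members stand beside 1.48% and 1.28% of all genes tested.

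A promoter window of Ntn4 is shown because it was one of the 2 members whose gates did not overlap with N above. The RefSeq table on GRCm38.p6 gives 300 bases, from 250 before to 50 after an annotated start, at chr10:93640799-93641098 on the plus strand. Capitals mark AGGTCA, one arm of the estrogen response element, the inverted repeat to which estrogen receptor alpha binds.
Ntn4: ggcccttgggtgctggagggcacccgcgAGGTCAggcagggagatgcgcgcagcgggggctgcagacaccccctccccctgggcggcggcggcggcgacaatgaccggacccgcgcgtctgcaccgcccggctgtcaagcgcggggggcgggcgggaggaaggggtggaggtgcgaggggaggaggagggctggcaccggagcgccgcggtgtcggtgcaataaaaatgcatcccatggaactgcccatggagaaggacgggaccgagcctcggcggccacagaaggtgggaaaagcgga
This arm, searched on both strands, was found in 14.1% of the 71 windows of 55 members and in 16.3% of 32851 windows of all genes. The estrogen response element with both arms, 3 free bases between them and 1 end base free, was in none of the members' windows and in 0.0548% of all windows. The AP-1 motif TGANTCA was in 4.23% and 7.81%, and the E-box CACCTG in 12.7% and 20.2%. A match is a run of letters and not a known site, and windows of 9 members were not in the table.

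Of the 5 netrin receptors 1, Unc5c, was called. Neo1 encodes neogenin, which binds netrins and repulsive guidance molecules. It had 23.6 CPM in its lowest, 35.6 in its median and 74.9 in its highest ML library, and 38.8, 49.9 and 65.5 CPM in N. All 9 N libraries lay above the ML median but within the range of ML, and the difference of 0.34 ± 0.20 on the log2 scale was not called (adjusted p = 0.22). Unc5b, a netrin receptor that also acts in vessels, ranged from 0.0769 CPM in WT ML 3 to 45.6 CPM in WT ML 1 and lay between 9.46 and 21.9 CPM in N, above the ML median of 5.76 CPM in all 9 libraries. Its log2 difference of 0.73 ± 0.63 was not called (adjusted p = 0.42), and WT ML 1 lay above all N libraries.

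Unc5c met the count rule through N libraries alone and was low, at 0.0475 to 0.869 CPM in ML, and reached 4.19 and 6.87 CPM in Y541S N 1 and Y541S N 2. The other N libraries had 0.126 to 0.691 CPM, within the range of ML. Unc5c rose by 2.10 ± 0.63 (adjusted p = 0.023), a description given how it met the count rule. With the library number within genotype as a replicate block, the adjusted p was 0.064. Unc5a (0 to 1.41 CPM over all libraries) and Unc5d (0.277 to 5.77 CPM) were low and were not called. Unc5a overlaps the coding gene Hk3, and its counts are uncertain.

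Slit2 and Robo2, a secreted ligand and its receptor, both rose. Slit2 had 0.301 to 2.15 CPM in ML with a median of 0.836. Its N values were 0.705, 0.595 and 8.93 CPM in WT, 28.4, 24.8 and 22.7 in D542G, and 9.74, 0.428 and 5.21 in Y541S. The D542G libraries were the 3 highest of all, while WT N 1, WT N 2 and Y541S N 2 lay within the range of ML. Slit2 rose by 2.97 ± 0.65 on the log2 scale (adjusted p = 0.0039), a call that was lost without WT ML 1, WT ML 2 and Y541S ML 3. Robo2 had 0.359, 1.10 and 7.41 CPM in its lowest, median and highest ML library and 0.740, 10.8 and 42.6 CPM in N. The 3 D542G N libraries, at 32.2, 20.9 and 42.6 CPM, were with WT N 1 (21.4 CPM) the 4 highest, and WT N 3, Y541S N 1 and Y541S N 2 (0.740, 6.12 and 2.42 CPM) were within the range of ML. Robo2 rose by 2.86 ± 0.68 (adjusted p = 0.0065), and the call was lost without WT N 1, WT N 2 and Y541S N 3.

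Slit3 and Robo1 were measured at higher levels but spread widely. Slit3 stood at 55.1 and 20.8 CPM in WT ML 1 and WT ML 2 and at 0.333 to 11.5 CPM in the other ML libraries. In N it was 77.6, 60.4 and 31.1 CPM in WT, 1.87, 6.14 and 2.89 in D542G, and 15, 10.7 and 31.5 in Y541S. High libraries occurred in both gates, and the log2 difference of 1.06 ± 0.69 was not called (adjusted p = 0.28). Robo1 had 3.40, 9.32 and 84.8 CPM in its lowest, median and highest ML library and 25.5, 44.0 and 61.7 CPM in N, so that all 9 N libraries lay above the median of ML, but WT ML 1 was the highest of all 18. Its log2 difference was 0.89 ± 0.50 without a block (adjusted p = 0.21) and 1.49 ± 0.47 with the replicate block, where it was called (adjusted p = 0.043). Robo4, the Robo receptor of endothelium, ranged from 0 to 12.4 CPM in ML and from 3.90 to 15.8 CPM in N and was not called. The sum of 12 endothelial markers was 113.8 to 301.9 CPM in ML and 144.8 to 877.3 CPM in N, and 8 of the 12 were called higher in N and 1 lower. Slit1, at 0 to 2.69 CPM, was not called.

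**Figure D3:**
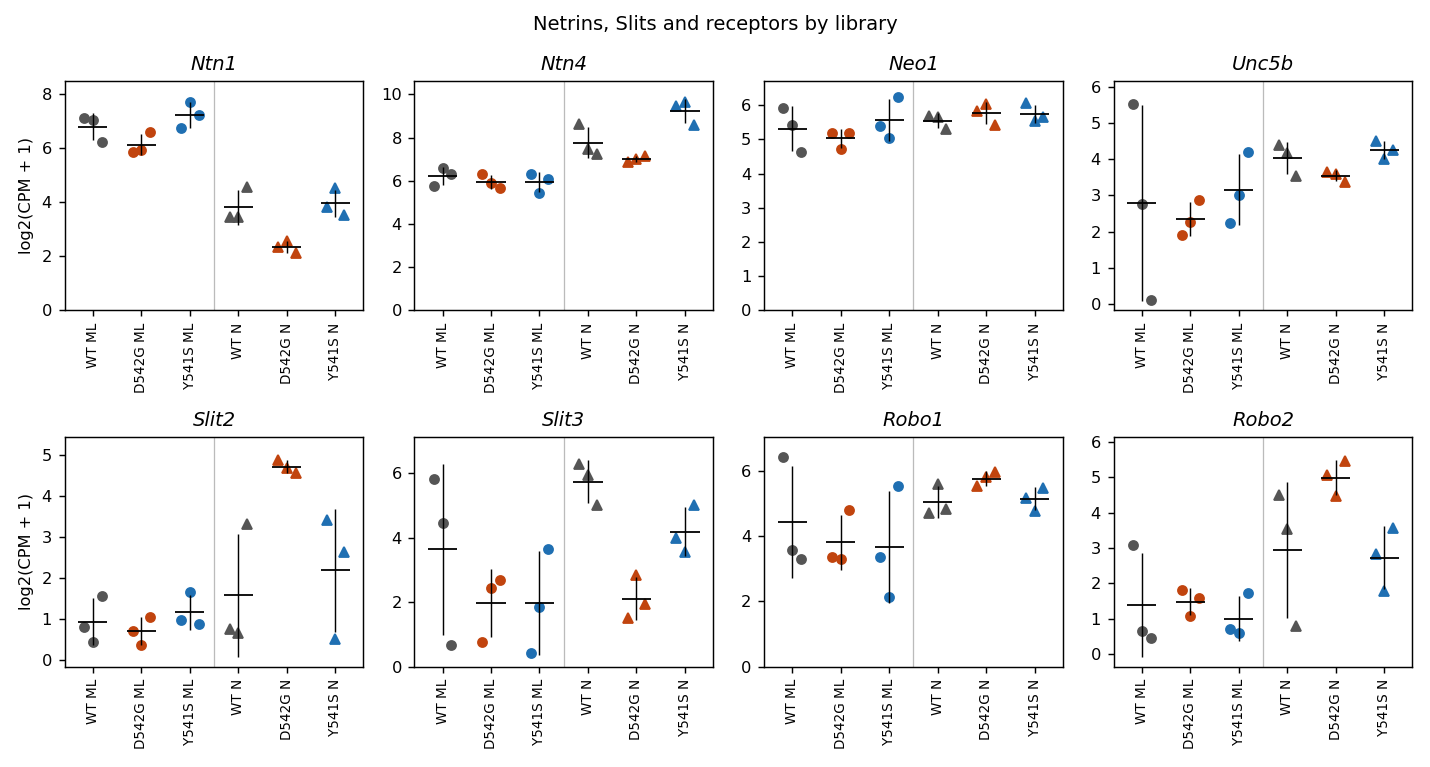
Levels of 2 netrins, 2 netrin receptors, 2 Slits and 2 Robo receptors as log2(CPM + 1) in each library, by group. Circles are ML and triangles N libraries, colours are genotypes, and lines give the mean and SD of 3 libraries. Ntn1 is lower and Ntn4 higher in every N library than in any ML library, and the 3 D542G N libraries are the highest for Slit2.

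Of the 7 class 3 semaphorins, which are secreted and mostly signal through neuropilins and plexins, 4 rose and none fell. Sema3c stood at 5.51, 44.6 and 25.2 CPM in WT ML, 43.0, 36.5 and 45.3 in D542G ML and 20.6, 41.4 and 37.4 in Y541S ML. In N it stood at 382, 689 and 64.3 CPM in WT, 160, 147 and 135 in D542G and 311, 148 and 340 in Y541S. Each N library was above each ML library, with WT N 3 the lowest of N. Sema3c rose by 2.91 ± 0.43 on the log2 scale (adjusted p = 0.00022), and the call held in each of the 18 fits with 1 library left out.

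The window of Sema3c, the other member with all N libraries above, is at chr5:17574566-17574865 on the plus strand and held none of the 4 motifs.
Sema3c: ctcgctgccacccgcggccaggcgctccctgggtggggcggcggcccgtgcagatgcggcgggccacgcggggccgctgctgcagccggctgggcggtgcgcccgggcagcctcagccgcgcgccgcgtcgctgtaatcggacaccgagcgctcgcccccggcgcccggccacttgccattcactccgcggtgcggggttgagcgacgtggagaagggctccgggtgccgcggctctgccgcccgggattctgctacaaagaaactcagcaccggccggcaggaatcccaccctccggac

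Sema3d and Sema3e were high in few libraries. Sema3d stood at 85.7 CPM in WT N 1, 142 CPM in WT N 2 and 95 CPM in Y541S N 3, and at 0.321 to 6.70 CPM in the other N and 0 to 4.16 CPM in the ML libraries. The 3 high libraries are those with high epidermal markers. Its rise of 4.80 ± 1.30 (adjusted p = 0.014) was no longer called without them. Sema3e, a ligand of Plxnd1, had 104 and 72.0 CPM in WT N 1 and WT N 2, 35.6 CPM in Y541S N 3 and 2.35 to 24.8 CPM in the remaining 6 of N, against 1.69 to 13.5 CPM in ML. It was called narrowly at 1.58 ± 0.56 (adjusted p = 0.049), and the call was lost in 14 of the 18 fits with a library left out.

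Sema3f rose by 0.67 ± 0.21, from 29.1 to 64.1 CPM in ML to 47.5 to 134 CPM in N (adjusted p = 0.027). With the replicate block the adjusted p was 0.051. Sema3a, a repellent that acts through Nrp1, was high in D542G N alone and was not called over the genotypes (0.51 ± 0.80, adjusted p = 0.69). Sema3b (0.526 to 10.9 CPM in ML and 1.74 to 23.7 CPM in N) and Sema3g (0 to 3.56 CPM and 0.176 to 4.67 CPM) were not called.

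Of the 6 membrane-bound semaphorins of class 4, 2 fell and none was called higher. Sema4d, the ligand of Plxnb1, lies at chr13:51685529-51793747 on the minus strand. It stood at 48.8, 31.6 and 67.6 CPM in WT ML, 67.1, 53.0 and 35.2 in D542G ML and 54.2, 49.3 and 57.2 in Y541S ML. The N libraries stood at 15.8, 18.0 and 30.4 CPM in WT, 22.8, 17.7 and 15.7 in D542G and 9.53, 12.8 and 13.5 in Y541S. All N libraries lay below all ML libraries, with WT N 3 (30.4 CPM) next to WT ML 2 (31.6 CPM). Sema4d fell by 1.61 ± 0.18 on the log2 scale (adjusted p = 3e-05).

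Sema4d has 3 windows in the RefSeq table, and the 2 that held a motif are shown because its gates did not overlap with N below. The first, at chr13:51748761-51749060 on the minus strand, has an AP-1 motif in capitals. The other, at chr13:51756634-51756933 on the minus strand, has the arm of the estrogen response element in capitals as its reverse complement.
Sema4d, first window: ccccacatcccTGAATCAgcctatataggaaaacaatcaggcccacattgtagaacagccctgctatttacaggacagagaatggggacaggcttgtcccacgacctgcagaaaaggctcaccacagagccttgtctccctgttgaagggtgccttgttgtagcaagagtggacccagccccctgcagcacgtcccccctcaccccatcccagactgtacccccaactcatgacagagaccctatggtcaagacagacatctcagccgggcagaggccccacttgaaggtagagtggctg
Sema4d, other window: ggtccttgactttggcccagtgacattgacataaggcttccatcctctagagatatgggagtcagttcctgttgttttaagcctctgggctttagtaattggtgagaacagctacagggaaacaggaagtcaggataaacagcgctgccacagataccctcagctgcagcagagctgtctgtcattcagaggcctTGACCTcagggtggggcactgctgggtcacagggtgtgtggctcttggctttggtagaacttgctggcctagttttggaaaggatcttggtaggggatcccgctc

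Sema4f met the count rule through ML libraries alone, so that its gate difference is a description. It was listed with 436 counts over the 9 ML libraries and 1 count over the 9 N libraries. Its mean of 1.11 CPM in ML was low, and the ratio of the sums was 439 (95% exact interval 78.4 to 17370, counting error only). Against the limit of 3 counts per library, Sema4f was at least 27.9-fold lower in N in D542G and at least 15.6-fold lower in Y541S. The adjusted p was 0.00097. Sema4a (49.4 to 158 CPM over all libraries), Sema4b (12.4 to 35.2 CPM), Sema4c (13.9 to 111 CPM) and Sema4g (0.025 to 3.31 CPM) were not called over the genotypes.

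In classes 5 to 7, Sema5a and Sema6d rose and the other 5 members were not called. Sema5a, a transmembrane semaphorin that binds Plxnb3, had 2.39, 6.41 and 14.7 CPM in its lowest, median and highest ML library. In N it stood at 82.0, 72.6 and 20.7 CPM in WT, 19.2, 23.8 and 11.4 in D542G and 141, 91.3 and 124 in Y541S. Only D542G N 3 lay within the range of ML, and the Y541S libraries were the 3 highest. Sema5a rose by 2.77 ± 0.38 (adjusted p = 0.00014) and was, with Ntn1, one of the 2 members called in each genotype by itself. Its calls in WT (adjusted p = 0.045) and D542G (adjusted p = 0.049) were each lost in 5 of 6 fits with 1 library left out, and the D542G call was also lost with RLE size factors and with no filter on low counts. Sema6d, a ligand of Plxna1, had 0.516 to 10.3 CPM in ML and 3.13 to 64.7 CPM in N. It rose by 2.53 ± 0.52 (adjusted p = 0.0026), and the 3 Y541S N libraries, at 64.7, 36.0 and 29.4 CPM, were the highest.

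Sema7a, a lipid-anchored semaphorin, was at 0.0506 to 2.52 CPM in ML and 0.117 to 2.79 CPM in N. Its log2 difference of -0.49 ± 0.67 was not called (adjusted p = 0.63), and its sign was positive in limma-voom. Sema6a (4.62 to 32.1 CPM in ML and 9.46 to 83.7 CPM in N), Sema5b, Sema6b and Sema6c were not called either, with adjusted p from 0.09 to 0.66.

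Neither neuropilin was called. Nrp1 had 20.1, 35.4 and 109 CPM in its lowest, median and highest ML library and 21.8, 45.8 and 62.6 CPM in N, and the difference of 0.05 ± 0.20 (adjusted p = 0.89) changed sign with single libraries left out. Nrp2 ranged from 2.21 to 41.3 CPM in ML and from 7.82 to 23.7 CPM in N (0.46 ± 0.49, adjusted p = 0.53). All N libraries were above the ML median of 4.46 CPM, while WT ML 1 and Y541S ML 3, at 41.3 and 34.6 CPM, lay above all of N.

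Among 9 plexins 3 rose and 2 fell. Plxna1, a receptor of class 3 and class 6 semaphorins, rose by 1.04 ± 0.20 (adjusted p = 0.0017) from 19.5 to 58.4 CPM in ML to 35.7 to 107 CPM in N, where the D542G libraries, at 107, 70.3 and 79.5 CPM, were 3 of the 4 highest. Plxna4 had 0.216 to 1.30 CPM in ML and 12, 7.22 and 7.85 CPM in Y541S N. In the other N libraries it stood at 0.198 to 2.71 CPM, so the ranges overlapped outside Y541S. Its rise of 2.0 ± 0.55 (adjusted p = 0.015) was not called with the replicate block (adjusted p = 0.057). Plxnd1, the receptor of Sema3e in vessels, rose by 1.87 ± 0.48 (adjusted p = 0.011), from 1.05 to 3.81 CPM in ML to 1.09 to 20.4 CPM in N. Its call was lost without WT ML 1, WT ML 2 and Y541S ML 3, a fit that left WT ML 3 alone in its group. The highest N libraries were Y541S N 2 (20.4 CPM) and Y541S N 1 (14.4 CPM), and Y541S N 2 also had the highest sum of endothelial markers, 877.3 CPM, whose part in the difference was not tested.

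Plxnc1, the receptor of Sema7a, fell by 2.71 ± 0.71 (adjusted p = 0.012), from 0.428 to 27.4 CPM in ML to 0.103 to 2.56 CPM in N. The highest value was that of Y541S ML 2, which also had the highest sums of macrophage markers (1955 CPM) and of B and plasma cell markers (1164 CPM). Macrophage markers summed to 583.4 to 1955 CPM in ML and 61.7 to 551.8 CPM in N, with 1 of 7, Cd14, called lower and none higher. The median log2 fold change of the 7 was 1.07, the other way from the sums, and Y541S ML 2 had no count of Csf1r. The list therefore gives no single direction for macrophages, and its part in the falls of Plxnc1 and Sema4d was not tested. The Plxnc1 call was lost with the replicate block (adjusted p = 0.078) and without WT N 1, WT N 2 and Y541S N 3. Plxnb3 also met the count rule through ML alone, so that its gate difference is a description. It had 131 counts over the ML and 14 over the N libraries, a ratio of 9.42 (95% exact interval 5.42 to 17.7, counting error only). The call (adjusted p = 0.029) was lost with the replicate block (adjusted p = 0.13).

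Plxnb1, the receptor of Sema4d, had 20.0, 34.3 and 47.4 CPM in its lowest, median and highest ML library and 18.3, 38.5 and 80.8 CPM in N. The difference of 0.29 ± 0.21 was not called (adjusted p = 0.34). Plxnb2 was the most abundant plexin per length of exon in both gates, at 198 to 396 CPM in ML and 158 to 300 CPM in N, and was not called. Plxna3 was also not called. Plxna2 ranged from 2.46 to 71.1 CPM in ML and from 7.44 to 57.2 CPM in N, with WT ML 1 and Y541S ML 3 high in ML. It was called only with the replicate block, at 1.05 ± 0.32 (adjusted p = 0.037) against 0.52 ± 0.61 without it (adjusted p = 0.57).

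**Figure D4:**
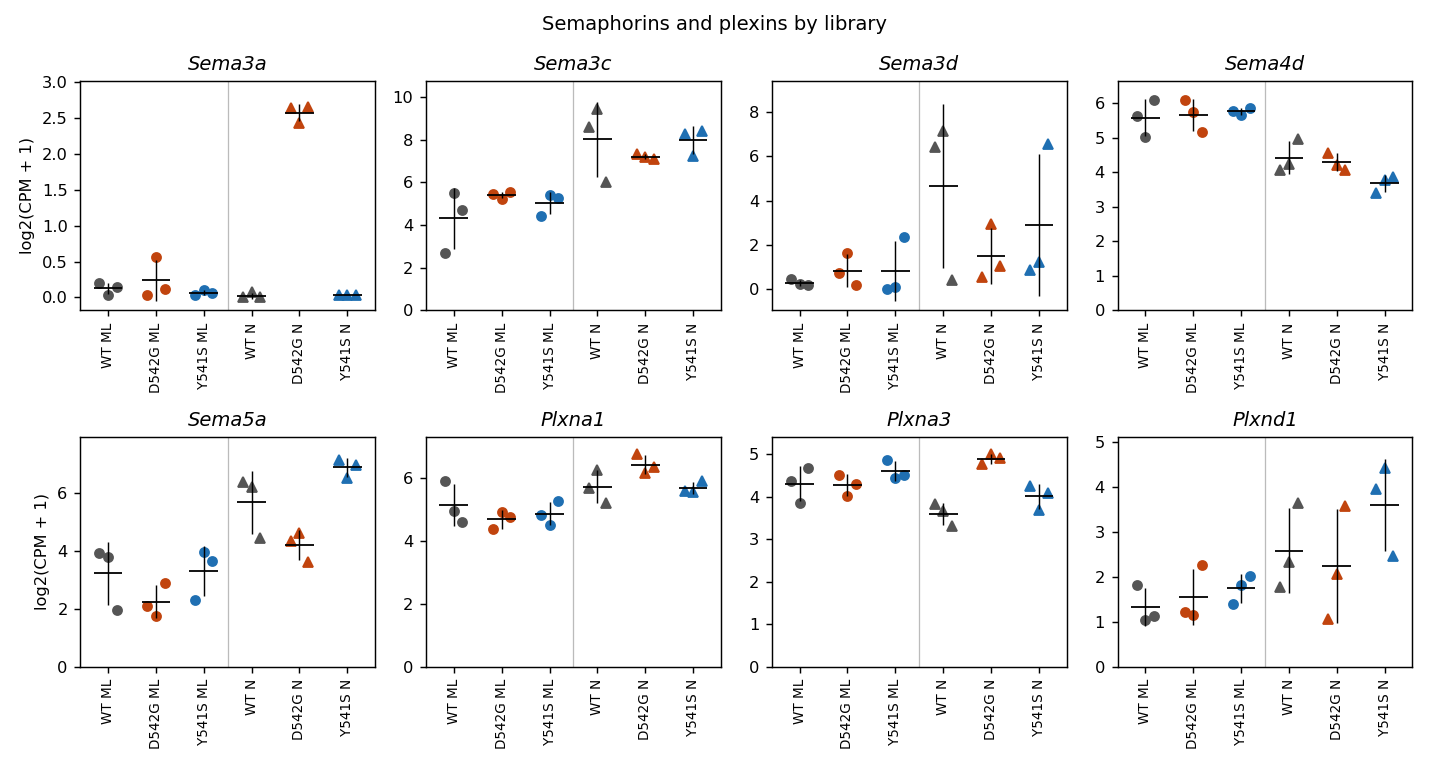
Levels of 5 semaphorins and 3 plexins as log2(CPM + 1) in each library, by group. Circles are ML and triangles N libraries, colours are genotypes, lines give the mean and SD of 3 libraries, and each panel has its own vertical scale. Sema3a is high in the 3 D542G N libraries, at 4.42 to 5.30 CPM, and at most 0.473 CPM elsewhere, and Sema3d is high in 3 single N libraries.

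The 3 ephrin-B ligands are transmembrane proteins that also signal into the cell that carries them. Efnb1 and Efnb2 rose, and Efnb3 was called higher too, but its choice depended on N. Efnb2 had 4.18, 13.3 and 53.2 CPM in its lowest, median and highest ML library. Its N values were 144, 222 and 49.9 CPM in WT, 60.9, 81.5 and 51.3 in D542G and 21.4, 15.6 and 112 in Y541S. All N libraries were above the ML median, and the highest were WT N 2, WT N 1 and Y541S N 3, the libraries with high epidermal markers. Efnb2 rose by 1.95 ± 0.51 (adjusted p = 0.011) and was not called without those 3.

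Efnb3 met the count rule through N libraries alone, so that its gate difference is a description. It had 31 counts over the ML and 1371 over the N libraries, a ratio of 43.9 (95% exact interval 30.8 to 64.9, counting error only). It stood at 10.9, 5.48 and 5.71 CPM in Y541S N, 1.58, 1.74 and 2.70 in D542G N and 0.327, 0.440 and 3.65 in WT N, against at most 0.414 CPM in ML, so WT N 1 was the only N library within the range of ML. The log2 change was 5.82 ± 0.97 (adjusted p = 0.0006). Efnb1 rose by 0.64 ± 0.19 (adjusted p = 0.022), from 52.8 to 133 CPM in ML to 63.4 to 144 CPM in N, and like Efnb2 it was not called without WT N 1, WT N 2 and Y541S N 3 (adjusted p = 0.17).

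Of 5 ephrin-A ligands, which are tethered by a lipid anchor, Efna2 and Efna3 rose. Efna1 was the most abundant member per length of exon in ML, with 108 CPM per kilobase, and stood at 152, 196 and 248 CPM in its lowest, median and highest ML library and 100, 158 and 234 CPM in N. Its difference of -0.31 ± 0.15 was not called (adjusted p = 0.13), and the replicate block gave -0.33 ± 0.10, which was called (adjusted p = 0.040). Efna3 had 1.21 to 13.2 CPM in ML and 3.10 to 56.8 CPM in N and was called narrowly (1.65 ± 0.58, adjusted p = 0.047). The call was lost in 12 of 18 fits with 1 library left out. Efna2 rose by 0.55 ± 0.18 (adjusted p = 0.036), from 5.08 to 11.6 CPM to 6.78 to 17.4 CPM, and was not called with the replicate block (adjusted p = 0.082). Efna4 and Efna5 were not called over the genotypes.

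Of 5 EphB members 3 rose and 1 fell, and of 7 EphA members 2 rose and 5 were not called. The median log2 fold changes were 0.87 and 0.02, a difference that was not tested. Ephb1 had 0.0506, 0.753 and 10.8 CPM in its lowest, median and highest ML library and 7.01, 11.8 and 43.9 CPM in N. Only WT ML 1 reached the range of N, and the 2 highest libraries were Y541S N 1 (43.9 CPM) and Y541S N 2 (30.8 CPM). Ephb1 rose by 3.42 ± 0.62 (adjusted p = 0.0012), but it overlaps another coding gene and its counts are uncertain.

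Ephb6, an Eph receptor without kinase activity, was the most abundant member per length of exon in N, with 112 CPM per kilobase. It stood at 60.8, 121 and 170 CPM in its lowest, median and highest ML library. The N libraries had 675, 755 and 155 CPM in WT, 360, 359 and 317 in D542G and 367, 291 and 508 in Y541S. Only WT N 3 lay within the range of ML. Ephb6 rose by 1.76 ± 0.25 (adjusted p = 0.00019). Ephb4, the receptor of Efnb2, had 35.9, 77.2 and 99.9 CPM in its lowest, median and highest ML library. In N it stood at 61.6, 84.1 and 76.8 CPM in WT, 209, 145 and 179 in D542G and 235, 202 and 152 in Y541S. The WT N libraries lay within the range of ML and the libraries of both mutants lay above it. Ephb4 rose by 0.87 ± 0.14 (adjusted p = 0.00054). It overlaps the coding gene Zan, and its counts are uncertain.

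Ephb3 fell by 0.49 ± 0.11 (adjusted p = 0.0058), from 53.7 to 76.5 CPM in ML to 31.8 to 63.4 CPM in N, with all 9 N libraries below the ML median of 65.0 CPM. Ephb2 was not called. Epha2, a receptor of Efna1 in epithelia, had 58.0, 83.4 and 160 CPM in its lowest, median and highest ML library and 76.8, 201 and 340 CPM in N. WT N 2 and Y541S N 3 were the highest, and WT N 3, Y541S N 1 and Y541S N 2 lay within the range of ML. Epha2 rose by 1.06 ± 0.30 (adjusted p = 0.017). Epha1 rose by 0.82 ± 0.26 (adjusted p = 0.030), a call lost in 9 of 18 fits with 1 library left out, and it overlaps the coding gene Zyx. Neither receptor was called without WT N 1, WT N 2 and Y541S N 3. Epha4 and Epha7 were at 9.87 to 114 CPM and 1.5 to 51.9 CPM over all libraries and were not called, nor were Epha3, Epha5 and Epha6, which were at 1.30 CPM or less.

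**Figure D5:**
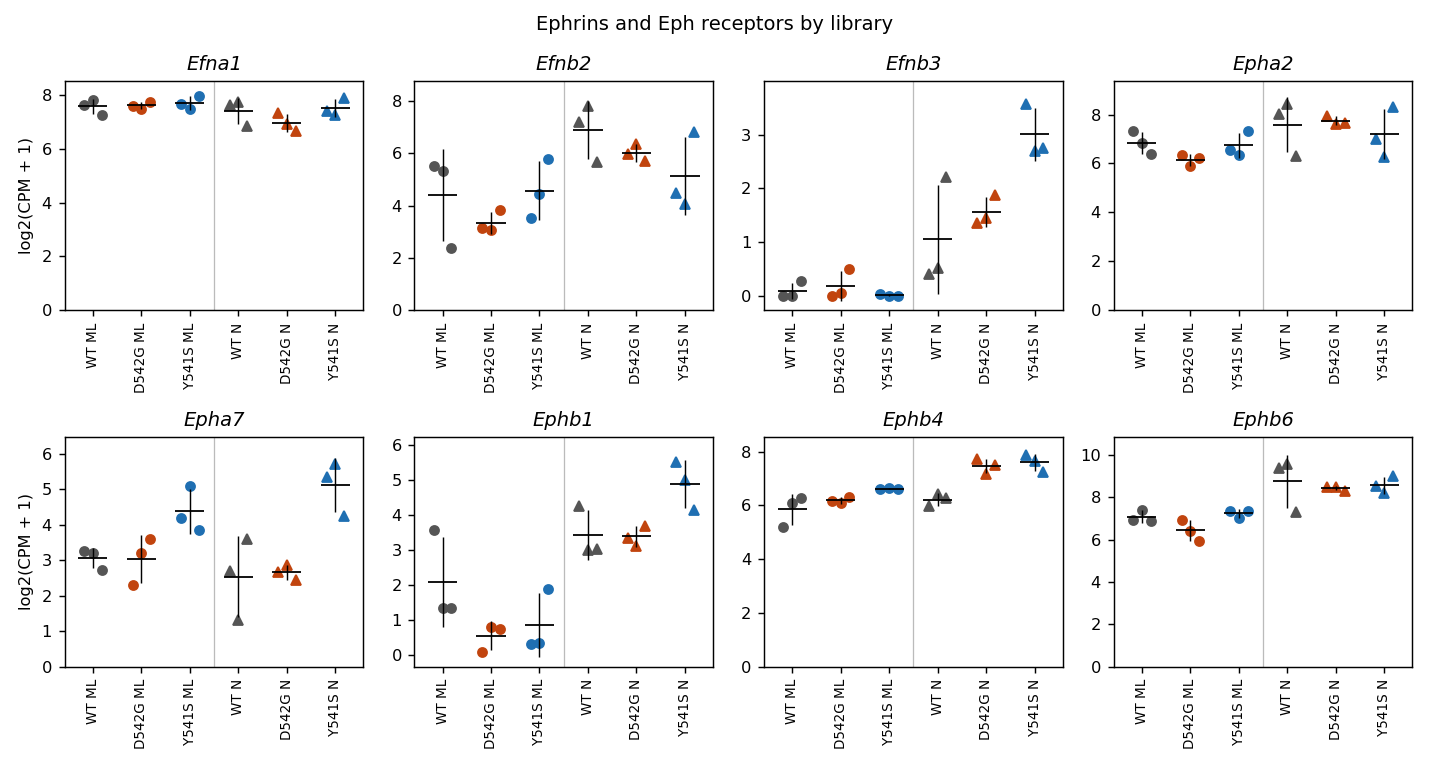
Levels of 3 ephrins and 5 Eph receptors as log2(CPM + 1) in each library, by group. Circles are ML and triangles N libraries, colours are genotypes, lines give the mean and SD of 3 libraries, and each panel has its own vertical scale. Ephb4 is higher in the N libraries of both mutants than in WT N, and Ephb6 is higher in N than in ML except in WT N 3.

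Several members were high in the libraries that stood apart. In WT N 1, WT N 2 and Y541S N 3, the N libraries with high epidermal sums, 15 of 64 members were higher in all 3 than in each of the other 6 N libraries, beside 9.92% of all genes. They were Epha1, Epha2, Epha4, Ephb6, Slit3, Sema3c, Sema3d, Sema3e, Sema3f, Sema4b, Efna1, Efna3, Efna5, Efnb2 and Plxna2. Nrp1 and Plxnc1 were lower in all 3, beside 6.14% of all genes. The 3 ML libraries with high hair follicle keratins (Y541S ML 3, WT ML 1 and WT ML 2) match the 3 N libraries above in genotype and number. In these ML libraries 12 members were higher than in each other ML library, beside 4.3% of all genes, and none was lower, beside 2.21%. These were Epha1, Epha2, Ephb1, Ephb2, Slit3, Sema3e, Efna3, Efnb2, Neo1, Nrp2, Plxna1 and Plxna2. Epha1, Epha2, Slit3, Sema3e, Efna3, Efnb2 and Plxna2 were in the lists of both gates. Efnb2, for example, was at 38.7 to 53.2 CPM in these 3 and at 4.18 to 20.8 CPM in the other ML libraries. Leaving these 3 out left WT ML 3 as the only WT ML library. In that fit the calls over the genotypes of Slit2, Sema3d, Sema3e, Sema3f, Efna2, Unc5c, Plxna4, Plxnb3 and Plxnd1 were lost. Without these 3, 29 members were called in N against ML, 20 of them among those called with all libraries, where 17.2% of all genes were called.

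Partners and effectors of the pathway that are no members moved both ways. Of 18 co-receptors and modulators tested 6 rose and 6 fell, where 13.8% of all genes rose and 13.6% fell. Their median log2 fold change was 0.44. Ntng1, a membrane-anchored relative of the netrins, fell by 2.97 ± 0.30 (adjusted p = 1.2e-05). The cell adhesion genes Cntn2 and Chl1 rose, by 5.19 ± 0.79 and 3.45 ± 0.55. Of 47 intracellular adaptors and effectors tested 15 rose and 4 fell, beside the same shares of all genes, with a median of 0.26. They included Dpysl3, a collapsin response mediator (2.66 ± 0.29, adjusted p = 1.8e-05), Ablim3, which binds actin (3.13 ± 0.35), and Mical1, an enzyme that acts on actin below plexins (1.29 ± 0.19).

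Within single genotypes fewer members were called. In WT, N against ML gave 5 of 64 (7.81%, beside 3.53% of all genes): Sema3c, Sema5a, Ephb6 and Ntn4 rose, where 2.14% of all genes rose, and Ntn1 fell, where 1.39% fell. With the replicate block the count was 10, since Ntn4 was lost (adjusted p = 0.088) and Sema3d, Sema3e, Efna3, Efnb2, Sema4c and Sema4d were gained. WT N 3 had a luminal marker sum within the ML range, and of the ML libraries only WT ML 1 had a higher basal sum. The count was 11 without WT N 3 and 1 to 3 without any other single library. Ntn1 kept its call in all 6 of these fits.

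In D542G 12 members were called (18.8%, beside 9.2% of all genes), 8 higher and 4 lower, where 4.71% of all genes were higher and 4.49% lower. Slit2 rose by 5.22 ± 1.24 (adjusted p = 0.018), Sema3a by 4.66 ± 1.07 (adjusted p = 0.015) and Plxna1 by 1.78 ± 0.35 (adjusted p = 0.0066). Ephb1, Ephb4, Ephb6, Sema5a and Sema6d also rose, and Ntn1, Sema4d, Sema4f and Ephb3 fell. Sema3a and Sema4f met the count rule through 1 gate, so their calls are descriptions within the count of 12. Ephb4, Ntn1 and Plxna1 kept the call in all 6 fits with 1 library left out, where the count was 4 without D542G ML 1, 9 without D542G ML 3 and 6 or 7 without each of the other 4 libraries. Robo2, at 32.2, 20.9 and 42.6 CPM in N against 2.48, 1.10 and 1.97 CPM in ML, missed the threshold (adjusted p = 0.051) and was called with the replicate block (4.13 ± 0.61, adjusted p = 0.0048). With the block Epha2, Efnb1, Efnb2, Efnb3 and Plxnb1 were gained and Sema4f was lost, at adjusted p from 0.0070 to 0.060.

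In Y541S 14 members were called (21.9%, beside 6.95% of all genes), 11 higher and 3 lower, where 4.22% of all genes were higher and 2.73% lower. Ntn4 rose by 3.34 ± 0.40 (adjusted p = 0.00029) and Sema5a by 3.57 ± 0.68 (adjusted p = 0.0061), and both calls held in all 6 fits with 1 library left out, as did those of Ntn1 and Sema4d, which fell by 3.35 ± 0.42 and 2.16 ± 0.33. Ephb1, Ephb4, Sema3c, Sema6d, Efna2, Efna4, Efnb3, Unc5c and Plxna4 also rose, and Sema4f fell. Efnb3, Unc5c and Sema4f met the count rule through 1 gate, so their calls are descriptions within the count of 14. The count was 10 without Y541S N 3, 5 without Y541S ML 1, Y541S ML 2 or Y541S N 1, and 7 without Y541S ML 3 or Y541S N 2. With the replicate block Efna2, Unc5c and Sema4f were not called (adjusted p = 0.092, 0.092 and 0.089) and Robo2 and Efna3 were (adjusted p = 0.028 and 0.046). Of all members, 19 were called in at least 1 genotype and 10 in at least 2.

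In the N gate the mutants were compared with WT and with each other. The comparisons share libraries, so their values are given side by side only. D542G against WT called 4 of 64 members (6.25%, beside 2.43% of all genes), of which Sema3a, Ephb4 and Plxna3 were higher in D542G, beside 1.61% of all genes, and Ntn1 lower, beside 0.82%. Y541S against WT called only Ephb4 (1.56%, beside 1.14% of all genes called and 1.02% called higher). D542G against Y541S called 4 (6.25%, beside 1.43%), with Sema3a higher and Ntn1, Ntn4 and Epha7 lower in D542G, where 0.421% of all genes were higher and 1.01% lower. Sema3a met the count rule only because of D542G N, so its calls are descriptions within these counts and raise both shares.

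Sema3a had 236, 223 and 226 counts in the 3 D542G N libraries (5.24, 4.42 and 5.30 CPM). It had 0, 2 and 0 counts in WT N and 1 in each Y541S N library, and 1 to 22 counts in ML. The ratio of summed counts, scaled by library size, was 295 to WT N (95% exact interval 81.4 to 2441), 203 to Y541S N (69.3 to 988) and 24.7 to D542G ML (16.8 to 37.8), with intervals for counting error only. Sema3a met the count rule only because of these 3 libraries (1 other, D542G ML 2, had at least 10 counts), so a high D542G N was built into its choice and its values are a description. The adjusted p was 0.0072 against WT N and 0.0084 against Y541S N, and both calls held with each of 6 libraries left out. The choice of Sema3a through D542G N favours such calls, so they are not read as tests. The Sema3a gene lies at chr5:13125414-13602565 on the plus strand. Schwann and neural markers summed to 131.7 to 166.2 CPM with D542G, 101.3 to 128.8 CPM with WT and 149.7 to 234.1 CPM with Y541S in the N gate, and fibroblast markers to 389.1 to 504 CPM, 120.2 to 218.1 CPM and 337.3 to 490.9 CPM. Their part in the Sema3a counts was not tested.

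Ephb4 was higher in N of both mutants than in WT N, by 1.26 ± 0.25 in D542G (adjusted p = 0.020) and 1.41 ± 0.25 in Y541S (adjusted p = 0.016). All 6 mutant libraries, at 145 to 235 CPM, were above the 3 WT libraries, at 61.6 to 84.1 CPM. Each call was lost in 4 of 6 fits with 1 library left out and without WT N 1, WT N 2 and Y541S N 3. Plxna3, a receptor of class 3 semaphorins, stood at 26.2, 30.9 and 28.9 CPM in D542G N, 13.1, 11.7 and 8.84 in WT N and 18.0, 11.8 and 16.0 in Y541S N. The D542G libraries were the 3 highest, and the difference to WT was 1.36 ± 0.26 (adjusted p = 0.018), again lost in 4 of 6 fits.

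Ntn1, at 3.36 to 4.97 CPM in D542G N, was below the other 6 N libraries. It was lower by -1.78 ± 0.40 than in WT (adjusted p = 0.033) and by -1.89 ± 0.40 than in Y541S (adjusted p = 0.030), and the first call was lost in all 6 and the other in 5 of 6 fits with 1 library left out. Ntn4 differed by -2.31 ± 0.39 between D542G and Y541S (adjusted p = 0.0084), with 115 to 142 CPM against 386 to 796 CPM, and the call was lost without 1 library in 2 of 6 fits. Epha7, at 5.42, 6.30 and 4.41 CPM in D542G N and 40.2, 51.9 and 18.1 CPM in Y541S N, differed by -2.77 ± 0.63 (adjusted p = 0.042) and was not called with library number as a replicate block (adjusted p = 0.076). D542G against WT had 7 calls without WT N 3 and 1 or 2 without each other library. Y541S against WT had 4 without Y541S N 3, 2 without WT N 3, 1 without WT N 1 and 0 without each of the others, and D542G against Y541S had 4 without Y541S N 3 and 1 or 2 without each other library. Summed basal markers lay at 14160 to 15880 CPM for D542G and 21770 to 36680 CPM for Y541S, luminal markers to 4689 to 6272 CPM and 1763 to 4733 CPM, and pericyte markers to 110.8 to 114.3 CPM and 314.6 to 438.2 CPM. Their part in these differences was not tested.

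Apart from calls, some members separated a genotype within the N gate. All 3 D542G N libraries lay above the other 6 for Slit2, Sema3a, Sema4a, Sema4c, Plxna3 and Plxnb1, 6 of 64 beside 5.16% of all genes. Sema3a met the count rule only because of these same libraries. The D542G N libraries lay below for Epha4, Slit3, Sema6a, Ntn1, Ntn4 and Plxna2, 6 of 64 beside 3.71%. All 3 Y541S N libraries lay above the other 6 for Epha7, Sema5a, Sema6a, Sema6d, Efna4, Efnb3, Nrp2 and Plxna4, 8 of 64 beside 4.31%, and below for Sema4d, beside 1.63%. WT N lay below both mutants for Ephb4 and Sema6d, 2 of 64 beside 4.02%, and above for none, beside 2.74%. Of the pair Sema4d and Plxnb1, the receptor stood at 80.8, 62.0 and 79.0 CPM in D542G N against 18.3 to 45.3 CPM in the other N libraries, a difference to WT that was not called (1.36 ± 0.37, adjusted p = 0.066).

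In the ML gate no member was called between genotypes by edgeR's quasi-likelihood test, DESeq2 or limma-voom, beside 0.0% of all genes in edgeR. All 3 D542G ML libraries lay above the other 6 for Sema3f (beside 1.51% of all genes) and below for no member (1.45%). Those of Y541S lay above for Epha7 and Ephb4 (2.01%) and below for Efna2 (1.28%), and those of WT above or below for none (1.1% and 1.83%). At an unadjusted p under 0.05, 6 members differed in D542G against WT (Ephb1, Slit3, Efna5, Unc5a, Nrp2 and Plxna2, beside 6.17% of all genes) and 4 in Y541S against WT (Epha7, Ephb4, Efna2 and Nrp1, beside 5.53% of all genes). Of the first 6, WT ML 1 held the highest ML value of Ephb1, Slit3, Efna5, Nrp2 and Plxna2, at 10.8, 55.1, 260, 41.3 and 71.1 CPM, and it was also the library with the most hair follicle keratin counts, whose part was not tested. Nrp1 stood at 109, 49.3 and 57.4 CPM in Y541S ML and 20.1, 35.2 and 28.8 CPM in WT ML, a difference of 1.36 ± 0.34 with an adjusted p of 0.86.

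Whether the gate difference itself differed between genotypes was tested as an interaction. No member was called in D542G against WT (0.109% of all genes were, 0.104% upwards and 0.00547% downwards) or in Y541S against WT (0.0% of all genes), and 10 and 7 members had an unadjusted p under 0.05, beside 10.7% and 8.41% of all genes. The members with the smallest p in D542G were Sema3a, with a difference of gate differences of 6.91 ± 1.55 (adjusted p = 0.13), and Plxna3, with 1.41 ± 0.37 (adjusted p = 0.18). Both were called by DESeq2 (adjusted p = 0.0038 and 0.011), beside 2.21% of all genes. Limma-voom with quality weights called Sema3a, Ephb4, Slit2 and Plxnb1 (adjusted p = 0.021, 0.020, 0.041 and 0.043), beside 6.85% of all genes. As Sema3a met the count rule only because of D542G N, its values here are a description. In Y541S the smallest p was that of Ntn4, with 1.70 ± 0.53 (adjusted p = 0.43), and DESeq2 and limma-voom called none. The calls within 1 genotype given above are therefore not shown by edgeR to differ between genotypes.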

How the data were processed

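RNA of sorted mouse mammary cells was sequenced in 18 libraries. Per gene, the authors deposited read counts and RPKM values, both named in the file headers. The build is GRCm38, per the submitters' processing notes, and the sources used here give no aligner, counter or use of strand. The deposited RPKM values divide by a width that equals the whole gene span for 85.6% of genes, and were used in no test. Symbols and coordinates came from GENCODE M21, which matched 52403 of 52636 identifiers.

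Groups came from the sample labels. Genes were kept by edgeR's filter (minimum count 10, minimum total 15), which left 18298. A quasi-likelihood model of 6 group means was fitted to all 18 libraries with edgeR 4.0.16 in R 4.3.3 (TMM factors 0.850 to 1.10, 12 residual degrees of freedom, biological coefficient of variation 0.652). Comparisons were contrasts of this model, with Benjamini-Hochberg adjustment over all genes tested, and every adjusted p given without another tool's name is from edgeR's quasi-likelihood test. The ± values of fold changes are standard errors worked out from the fold change and the F statistic of edgeR's test. They rest on the spread estimated by the whole model, not on 3 libraries alone. The labels call replicates biological and name no animals, so p-values measure the spread between these libraries. Counting intervals are exact at 95%. The fit was also run on simulated counts of independent libraries with known changes. That run checked the code only, since the simulation held no pairing of the gates and no libraries that stood apart.

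Alternatives were RLE size factors, DESeq2 1.42.0, limma-voom with quality weights (limma 3.58.1), other filters on low counts, only the groups compared, a replicate block, each library left out, and WT N 3 with Y541S N 3 left out. Another 2, leaving out the N libraries with high epidermal markers or the ML libraries with high hair follicle keratins, were chosen after seeing the data. The 2 sets were not left out together. The N and ML libraries of the same number within a genotype deviated together (r = 0.166 to 0.553 over 9 pairs). The replicate block therefore took the numbers to pair the gates. The main model, and the calls and adjusted p given without the block, did not use this pairing. The pairing comes from the data, and the labels name no shared animal. The members, gene lists and tests were chosen with earlier results of these data known. All members could be named. Values in every library were given for the called members with the largest fold changes (up to 12 in each direction for N against ML over the genotypes and up to 3 in every other comparison, average log2 CPM at least 1) and for 18 genes set by name.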

Additional observations from a re-analysis of the deposited data

How the results depend on the processing

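Shares in parentheses are of all genes called in the same fit. Over the 3 genotypes, N against ML called 29 members (27.4%). It called 29 with RLE factors (27.4%), 26 with no filter (16.1%), 29 with the filter of the members (27.3%), 38 by limma-voom (42.0%), 30 by DESeq2 (33.2%), 29 with only the groups compared (27.4%) and 28 without the pair WT N 3 and Y541S N 3 (32.0%). The replicate block gave 26 (26.8%), of which 23 were among the 29. The count was 18 without WT N 1, WT N 2 and Y541S N 3 (14.6%), and 24 to 31 with each library left out.

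In WT, with 5 members (3.53%), the count was 21 by limma-voom (28.2%), 11 by DESeq2 (11.3%), 0 with only the groups compared (0.101%), 10 with the replicate block (4.92%), 13 without the pair (17.4%), 0 without the libraries of high epidermal markers (0.919%), 1 without those of high hair follicle keratins (0.281%), and 1 to 11 with each library left out. In D542G, with 12 (9.2%), it was 29 by limma-voom (32.0%), 23 with only the groups compared (22.0%), 17 with the block (10.7%) and 4 to 9 with each library left out. In Y541S, with 14 (6.95%), it was 9 with only the groups compared (6.89%), 13 with the block (8.68%) and 5 to 10 with each left out.

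In the N gate, D542G against WT, with 4 (2.43%), had 25 by limma-voom (22.4%), 11 by DESeq2 (9.37%), 2 with only the groups compared (0.78%), 11 without the pair (9.65%) and 1 to 7 with each library left out. Y541S against WT, with 1 (1.14%), had 11 (10.6%), 7 (5.82%), 0 (0.0%), 10 (10%) and 0 to 4 in the same order. D542G against Y541S, with 4 (1.43%), had 13 by limma-voom (6.67%), 10 by DESeq2 (6.23%), 9 with only the groups compared (4.06%) and 1 to 4 with each left out. Y541S against WT in the ML gate, with 0, had 1 without the ML libraries of high hair follicle keratins (0.0197%). The gate change in D542G, with 0 (0.109%), had 4 by limma-voom (6.85%), 2 by DESeq2 (2.21%) and 1 without those ML libraries (0.0345%), and that in Y541S, with 0, had 1 without the pair (4.18%). The causes were not tested. Between genotypes, same-numbered libraries did not deviate together (r = -0.543 to 0.298), and the block gave 4, 1 and 3 calls for the 3 comparisons of the N gate (1.69%, 0.732% and 1.05%).

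The log2 fold change of Sema7a was 0.023 by limma-voom, and that of Nrp1 ran from -0.040 to 0.19 with each library left out. Of the values of single members, 1191 kept their direction and side of the threshold, 185 lost and 15 gained the call and 5 changed sign. Where a group was left with 1 library, that library was assumed to vary like the others. Members with few counts, such as Sema4f, Plxnb3 and Unc5a, are limited by depth.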
